A study of Mus musculus with 5 samples.

Results

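Small leucine-rich proteoglycans (SLRPs) of the dermis were followed in the dorsal skin of *Clock* mutant and wild-type mice. The members are 9 genes, *Dcn*, *Bgn*, *Aspn*, *Fmod*, *Lum*, *Prelp*, *Omd*, *Ogn* and *Podn*. They were taken as every probe set that the array's annotation assigns to a single member, which gave 20 of the 45037 probe sets that are not controls. All 20 passed the filter on dim signal, and they stand among 27022 probe sets and 12955 genes that could be tested. The samples are 5 mice at postnatal day 23 (P23), with 1 Affymetrix array per mouse: 2 *Clock* mutants and 3 wild-type (WT) littermates. One mutant, replicate 1, was male, and 4 of the 5 mice were female. The study keeps its *Clock* line on the C57BL/6J background, and the mutant CLOCK protein has reduced transcriptional activity but is still made. The authors describe this skin as telogen, when hair follicles rest, but class P23 as early anagen in their wild-type time course. The comparison asks which transcripts differ with genotype at this age. The hour at which skin was taken was not in the labels used here.

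SLRPs are secreted proteins built of leucine-rich repeats that bind collagen fibrils, and most carry chondroitin, dermatan or keratan sulfate chains. Bound to collagen, they govern how fibrils grow in width and how they are spaced. Dermal fibroblasts are their main source in skin, where decorin and lumican are abundant, and mice without *Dcn* have fragile skin with irregular fibrils. Several SLRPs also bind growth factors of the TGF-beta family and cell surface receptors. CLOCK and BMAL1 activate genes through E-boxes, and the study examines such genes in telogen skin.

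The promoters are shown for *Podn*, which had the largest difference of the 9 genes, and for *Bgn*, a member whose values barely differed and whose promoter also holds GC boxes. Each line gives the 250 bases before an annotated start, 5′ to 3′ on the gene's strand, from RefSeq on GRCm38.p6. Capitals mark GC boxes (GGGCGG, or CCGCCC on the other strand). *Podn* has a pair of annotated starts in the table, at chr4:108031955-108032204 and chr4:108030987-108031236, both on the minus strand, and *Bgn* lies at chrX:73483351-73483600 on the plus strand.
Podn, upstream start: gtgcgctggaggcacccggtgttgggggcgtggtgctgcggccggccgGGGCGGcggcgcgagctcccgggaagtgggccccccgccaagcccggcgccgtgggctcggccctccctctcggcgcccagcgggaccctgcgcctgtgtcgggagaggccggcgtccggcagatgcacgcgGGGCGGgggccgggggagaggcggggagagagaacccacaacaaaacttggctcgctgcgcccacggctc
Podn, downstream start: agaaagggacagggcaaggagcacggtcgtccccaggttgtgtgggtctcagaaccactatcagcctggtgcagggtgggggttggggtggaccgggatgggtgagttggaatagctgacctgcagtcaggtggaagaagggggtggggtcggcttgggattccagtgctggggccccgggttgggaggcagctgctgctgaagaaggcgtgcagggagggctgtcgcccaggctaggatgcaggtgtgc
Bgn: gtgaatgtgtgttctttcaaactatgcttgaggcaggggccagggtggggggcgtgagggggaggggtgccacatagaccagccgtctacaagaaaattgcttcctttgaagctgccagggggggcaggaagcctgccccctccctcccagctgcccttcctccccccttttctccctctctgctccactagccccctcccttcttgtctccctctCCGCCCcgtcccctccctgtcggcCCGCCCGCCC

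Promoters of 7 of the 9 members, 8 starts in all, were found in the RefSeq table of 32851 promoters, and those of *Dcn* and *Lum* were not analysed here. None of the 8 held CACGTG, the E-box, which was present on either strand in 6.02% of all promoters of this length. None held CACGTT, a weaker E-box (3.85% of all promoters), or TTATGTAA, a D-box (0.819%). AGGTCA, the core of REV-ERB and ROR sites, was present in 2 of the 8, at the downstream *Podn* start, 134 bases before it and read as TGACCT, and 80 bases before the *Omd* start, against 14.0% of all promoters. GC boxes were in 2 of the 8, the upstream *Podn* start and *Bgn*, against 32.7%, and the last 2 GC boxes of *Bgn* overlap each other. TATAAA was in 2 of the 8, *Aspn* and *Ogn*, against 12.4%. Base composition separated the members, from 30% G or C before *Aspn*, 38.4% before *Omd* and 42.0% before *Ogn* to 78.0% before the upstream *Podn* start, against a median of 52.4%. These windows are short, and the letters searched are a description of the sequence alone.

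Signal was high for the abundant dermal members. On the linear MAS5 scale, where each array has a trimmed mean of 500.0, the *Dcn* probe set 1449368_at read 21610 to 23967 on the 5 arrays. The highest value of any probe set on an array was 25769 to 29617. Intensities of different probe sets depend on their probes and were not set against each other.

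None of the 9 genes passed the adjusted threshold of 0.05 in limma. At the brightest probe sets of *Dcn*, *Bgn*, *Aspn*, *Lum* and *Ogn* the mutants differed from the WT by between -3.53% and 4.15%. At those of *Fmod*, *Prelp* and *Omd* they differed by -8.26%, 12.5% and -14.6%, and at the second *Ogn* probe set by -13.9%. *Podn* had the largest difference, with a lower intensity on both mutant arrays than on all 3 WT arrays. Of the 20 probe sets, 13 had a negative and 7 a positive log2 difference (*Clock* mutant minus WT), with a median of -0.05 against -0.02 over all tested probe sets. With each array centred on its median the split was 9 negative to 11 positive, and after quantile normalization 14 to 6. None passed the adjusted threshold, against 0.0888% of all tested probe sets. At an unadjusted p under 0.05, 2 were lower and 0 higher, against 6.71% of all tested probe sets that were lower and 4.09% that were higher. These counts turned on single mutants. Without *Clock* mutant replicate 2, 8 were lower, 4 of *Fmod* and the others of *Podn*, *Ogn*, *Dcn* and *Aspn*, against 10.5% of all tested probe sets in that fit. Without *Clock* mutant replicate 1, 3 were higher, all of *Fmod*, against 2.46%. *Podn* alone had an unadjusted p under 0.001, which 0.548% of all tested probe sets had. Groups did not overlap for 3 lower probe sets (*Podn*, *Omd* and 1 of *Ogn*) and for 1 higher probe set (*Prelp*), against 15.1% and 12.8% of all tested probe sets. At their brightest probe sets, 6 member genes had a negative and 3 a positive difference, with a median of -0.05 against 0.02 over all genes. None of the 9 passed the adjusted threshold, against 0.116% of all genes, and *Podn* alone had an unadjusted p under 0.05, against 10% of all genes. The 95% interval of the difference lay within 0.5 of 0 on the log2 scale for 16 of the 20 probe sets (80%), against 49.1% of all tested probe sets. The 16 include all 6 of *Fmod*, and the other 4 were *Podn*, *Omd* and the dimmer probe set of *Dcn* and of *Prelp*. At the brightest probe sets the same held for 7 of the 9 genes, against 61.8% of all genes. These shares were not matched for intensity, so they do not show that the members vary less.

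**Figure D1:**
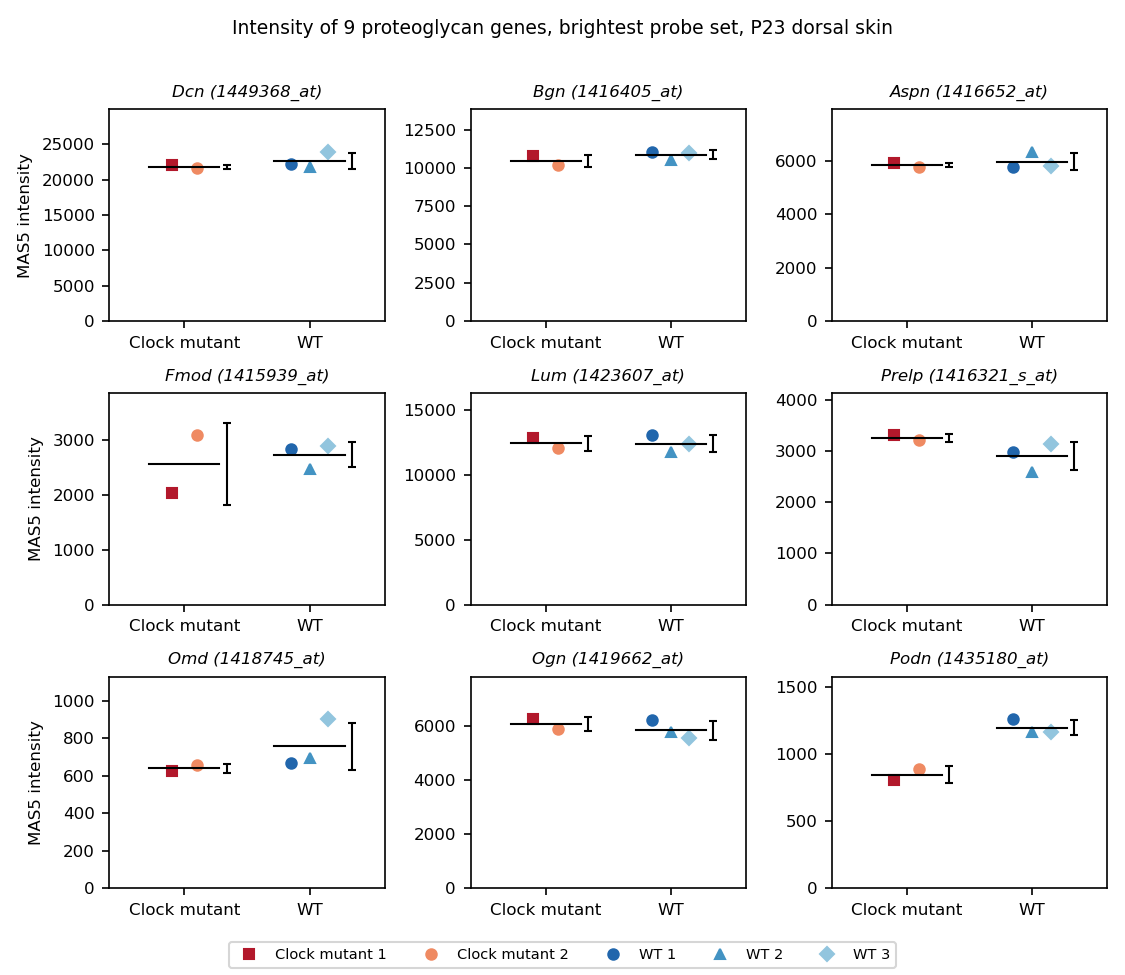
MAS5 intensity (linear axis from 0) of the brightest probe set of each of the 9 genes on the 5 arrays, with group means as lines and SD as bars (n = 2 *Clock* mutant, n = 3 WT). The *Podn* points of the mutants (805 and 893) lie below those of the WT (1164 to 1263), while those of *Dcn*, *Bgn*, *Lum*, *Aspn* and *Ogn* intermingle.

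Class I holds decorin, biglycan and asporin, which share a cysteine pattern. *Dcn* (Entrez 13179) encodes decorin, which carries a single chondroitin or dermatan sulfate chain and binds collagen I fibrils and TGF-beta. Its bright probe set 1449368_at read 22017 in the first and 21610 in the second *Clock* mutant, and in order of replicate 22174, 21750 and 23967 in the WT, an order kept throughout. The mutant values lay near the lower WT values. The log2 difference was -0.05 (SE 0.0649, 95% interval -0.20 to 0.09, limma adjusted p = 0.801). The dim probe set 1441506_at read 220 and 275 in the mutants and 264, 357 and 408 in the WT, a log2 difference of -0.45 with a wide interval of -0.92 to 0.01 (adjusted p = 0.468). There the second mutant exceeded the lowest WT mouse, so that the groups overlapped.

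*Bgn* (Entrez 12111) encodes biglycan, an X-linked relative of decorin with a pair of chains that also signals through Toll-like receptors when released from the matrix. Probe set 1416405_at read 10750 and 10203 in the mutants and 11070, 10516 and 10965 in the WT. The log2 difference was -0.05 (SE 0.0654, 95% interval -0.20 to 0.10, adjusted p = 0.808). The other 2 probe sets, 1437889_x_at and 1448323_a_at, had differences of the opposite sign, 0.06 and 0.06 (adjusted p = 0.781 and 0.786). All 3 pairs of groups overlapped, and the male mouse had the highest of the 5 values at the latter 2 probe sets and a value within the female range at the first.

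*Aspn* (Entrez 66695) encodes asporin, which binds collagen I and TGF-beta and, unlike its relatives, is not a typical proteoglycan. Its bright probe set 1416652_at read 5918 and 5792 in the mutants and 5785, 6355 and 5804 in the WT, a log2 difference of -0.03 (SE 0.074, 95% interval -0.20 to 0.14, adjusted p = 0.912). The mutant values lay inside the WT range. At 1448421_s_at the values were 1491 and 1815 in the mutants and 1758, 2025 and 1766 in the WT, with a difference of -0.17 (95% interval -0.42 to 0.09, adjusted p = 0.615) and overlapping groups. With each array centred on its median, which moves the median difference of all probe sets by 0.09, the bright probe sets of *Dcn*, *Bgn* and *Aspn* had positive differences of 0.04, 0.04 and 0.06, so that no direction is given for them.

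In class II, whose chains are keratan sulfate where present, *Fmod* differed more between the mutant mice than between genotypes. *Fmod* (Entrez 14264) encodes fibromodulin, which binds collagen I at a site shared with lumican. It has 6 probe sets, of which 5 are of the _x_at kind that can share target sequence, so they are not separate measurements. Probe set 1415939_at read 2033 and 3094 in the mutants and 2845, 2474 and 2903 in the WT, a log2 difference of -0.12 (SE 0.159, 95% interval -0.48 to 0.24, adjusted p = 0.806). The 5 others ranged from -0.11 to 0.10. On 5 of the 6 probe sets *Clock* mutant replicate 1 was the lowest and replicate 2 the highest of the 5 arrays. On those 5 the mutants differed from each other by 0.55 to 0.78 on the log2 scale, a gap wider than for 88.8% to 95.3% of all tested probe sets, while the 3 WT mice spanned 0.16 to 0.35. On the sixth, 1438966_x_at, the dimmest at 203 to 245, the mutants differed by 0.08. At the other 5 the sign of *Fmod* therefore followed the mutant kept, with 0.18 at 1415939_at without replicate 1 and -0.43 without replicate 2. At 1438966_x_at it stayed negative, from -0.18 to -0.01 over the alternative settings. Sex also differed between the mutants, and its part in the gap was not tested.

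*Lum* (Entrez 17022) encodes lumican, the best known regulator of fibril spacing in the cornea, which is also abundant in dermis. Its probe set 1423607_at read 12802 and 12024 in the mutants and 13032, 11760 and 12374 in the WT. The mutant values lay inside the WT range, and the log2 difference was 0.00 (SE 0.0707), with a 95% interval of -0.16 to 0.16 (adjusted p = 0.99).

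*Prelp* (Entrez 116847) encodes prolargin, which has a basic N-terminus that binds heparan sulfate and anchors basement membranes to collagen. Its bright probe set 1416321_s_at read 3307 and 3206 in the mutants and 2979, 2600 and 3133 in the WT. Both mutants were above all WT mice, though the lower mutant barely exceeded the highest WT mouse, and the log2 difference of 0.17 (SE 0.0948, 95% interval -0.04 to 0.38, adjusted p = 0.548) did not pass. The dim probe set 1416322_at read 342 and 297 against 337, 366 and 389, a difference of the opposite sign, -0.19 (95% interval -0.51 to 0.13, adjusted p = 0.654), with overlapping groups.

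*Omd* (Entrez 27047) encodes osteomodulin, an acidic keratan sulfate proteoglycan best known from bone. Its probe set 1418745_at read 624 and 658 in the mutants and 671, 697 and 903 in the WT. The mutants were just below the lowest WT mouse, and WT replicate 3 stood above the rest. The log2 difference was -0.23 (SE 0.143, 95% interval -0.55 to 0.10, adjusted p = 0.589), and it was -0.09 at its smallest over the alternative settings, without that mouse.

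Class III is represented by *Ogn* (Entrez 18295), which encodes osteoglycin, also called mimecan, a small SLRP that binds collagen I. Its probe sets disagreed. At 1419662_at the mutants read 6250 and 5888 and the WT 6204, 5755 and 5534, a log2 difference of 0.06 (SE 0.0773, 95% interval -0.12 to 0.23, adjusted p = 0.813) with overlapping groups. At 1419663_at the mutants read 4971 and 4888 and the WT 5613, 5698 and 5873, a difference of -0.22 (SE 0.0684, 95% interval -0.37 to -0.06, adjusted p = 0.353), with both mutants below all WT mice. The ratio of the second probe set to the first, as log2, was -0.33 and -0.27 in the mutants and -0.14, -0.01 and 0.09 in the WT. It was thus lower in both mutants than in any WT mouse, and the transcript forms that each probe set reads were not analysed here.

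**Figure D2:**
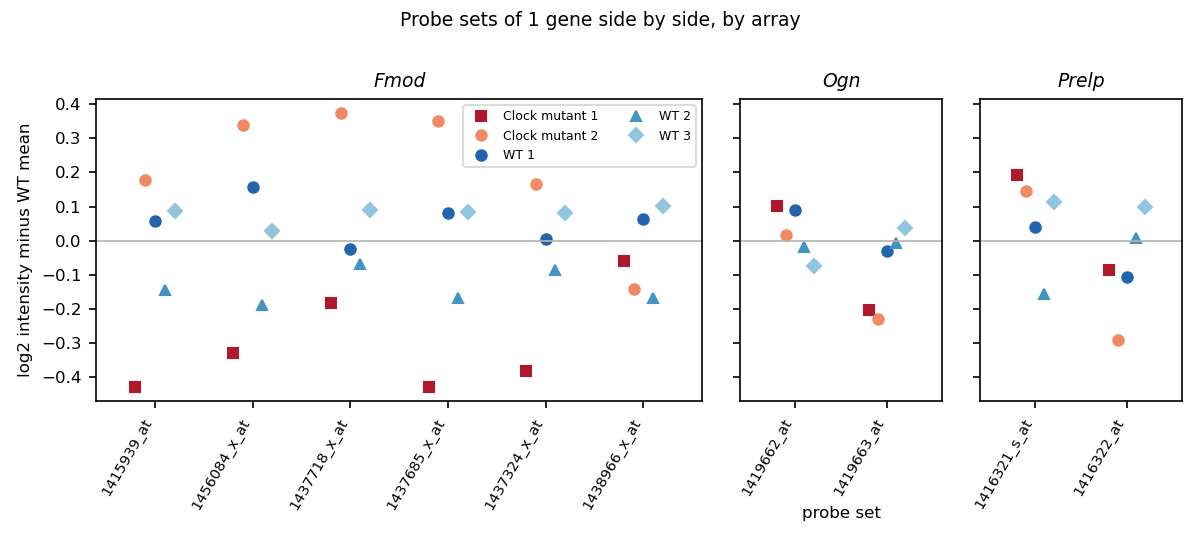
log2 intensity minus the WT mean for each probe set of *Fmod*, *Ogn* and *Prelp*, 1 point per array. The mutants lie at opposite ends of 5 of the 6 *Fmod* probe sets, 0.55 to 0.78 apart, while the probe set pairs of *Ogn* and *Prelp* place them on different sides of the WT mean.

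*Podn* (Entrez 242608) belongs to class V, which was placed in the family by sequence likeness. It encodes podocan, a secreted protein that binds collagen I and is known to restrain smooth muscle growth in arteries. Its only probe set, 1435180_at, read 805 and 893 in the *Clock* mutants, and 1263, 1167 and 1164 in the WT. Both mutants were below all 3 WT mice, and the gap between the groups was wider than the spread within either. Mean intensities were 849 ± 61.8 (SD, n = 2 *Clock* mutants) and 1198 ± 56.5 (SD, n = 3 WT mice). The log2 difference was -0.50 (SE 0.101, 95% interval -0.73 to -0.27), a 1.41-fold lower level with an interval of 1.21-fold to 1.65-fold. The unadjusted limma p was 0.000791 and the adjusted p 0.175, so the difference missed the threshold. It was -0.42 (adjusted p = 0.534) without the male mouse, which leaves females only, and over all alternative settings it ranged from -0.57 to -0.41, with adjusted p from 0.0725 to 0.59 and an unadjusted limma p of at most 0.00653. In whole skin, fewer cells of a type and less RNA per cell cannot be told apart, which holds for every gene here.

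**Figure D3:**
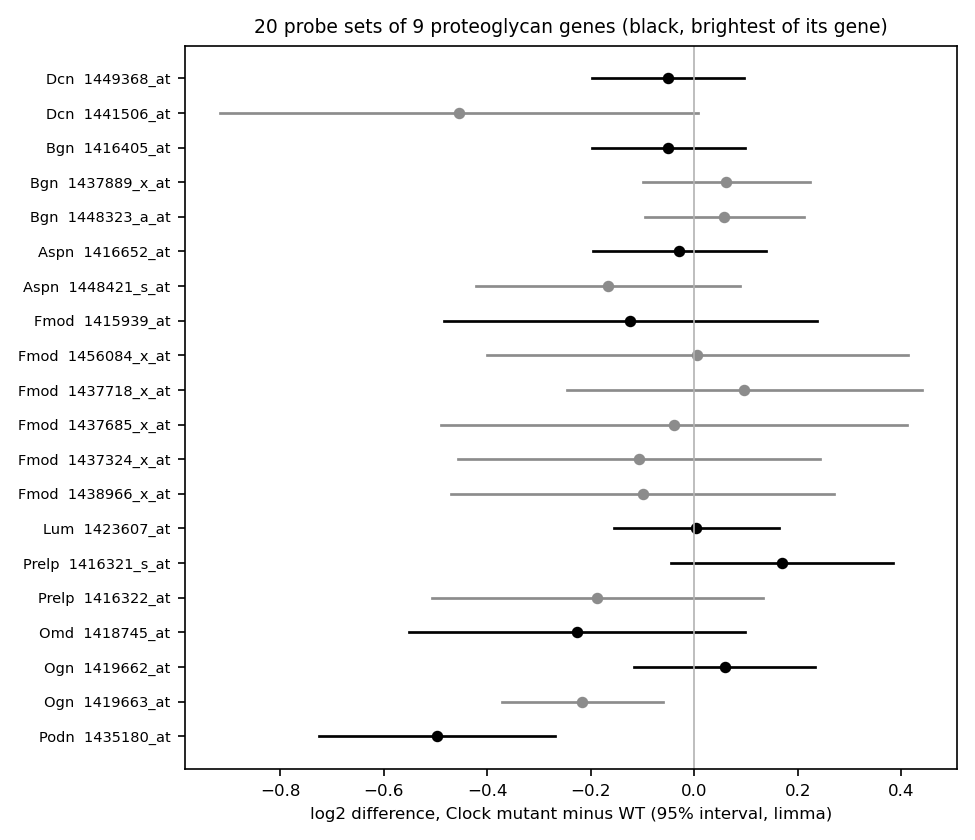
log2 difference (*Clock* mutant minus WT) of all 20 probe sets with 95% intervals from limma, black for the brightest probe set of a gene and grey for the others. The intervals of *Podn* and of *Ogn* 1419663_at lie wholly below 0 before adjustment, and the intervals of *Lum*, of all 3 *Bgn* probe sets and of the bright *Dcn* and *Aspn* probe sets lie between -0.20 and 0.22.

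Of the 9 members, 7 lie next to another SLRP gene in the genome, in the RefSeq order of GRCm38.p6. *Dcn*, *Lum* and *Kera* follow each other on chromosome 10, after *Gm46240*. *Ecm2*, *Aspn*, *Omd* and *Ogn* follow each other on chromosome 13, before *Nol8*, and *Optc*, *Prelp* and *Fmod* on chromosome 1, before *Btg2*. *Podn* on chromosome 4 lies between *Slc1a7* and *Scp2*, and *Bgn* on the X chromosome between *Haus7* and *Atp2b3*. The neighbours *Aspn*, *Omd* and *Ogn* had differences of -0.03, -0.23 and 0.06 at their brightest probe sets, with -0.22 at the second of *Ogn*, and *Prelp* and *Fmod* of 0.17 and -0.12. Of the other 8 SLRP family genes, 3 could be tested and 0 had an unadjusted p under 0.05. *Kera*, the corneal keratocan, had a difference of 0.22 (adjusted p = 0.77), *Ecm2* of -0.06 (adjusted p = 0.907) and *Nyx* of 0.06 (adjusted p = 0.961). *Epyc*, *Optc* and *Chad* were below the intensity filter, and *Tsku* and *Podnl1* were not analysed here.

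The proteins with which SLRPs work were described from lists, by gene at the brightest probe set. In limma, 0 genes of the 6 lists that follow, and 0 of the other SLRPs, passed the adjusted threshold, and the p under 0.05 counted for each list is unadjusted, a level at which 5.24% of all genes were higher and 4.78% lower. Of 11 fibrillar and fibril-associated collagens, the fibrils that SLRPs coat, 6 were higher and 5 lower, 2 and 0 of them at p under 0.05, with a median difference of 0.01. *Col5a3*, a collagen V chain, had a difference of 0.66 (adjusted p = 0.262), which was 0.32 without *Clock* mutant replicate 1. *Col14a1*, a fibril-associated collagen that meets decorin on the fibril surface, was at 0.18 (adjusted p = 0.458), at 0.11 without that mouse and at -0.07 on its other probe set. Of 18 tested enzymes that build chondroitin and dermatan sulfate, 8 were higher and 10 lower, 1 and 0 at p under 0.05, with a median of -0.0031. The sulfotransferases *Chst7* and *Chst12* had the smallest p, with differences of 0.80 (adjusted p = 0.407) and 0.27 (adjusted p = 0.469). Of 6 tested keratan sulfate enzymes, 4 were higher and 2 lower and 0 had p under 0.05, with a median of 0.03. *B3gnt2* (-0.17, adjusted p = 0.615, and -0.34 at its other probe set) and *B4galt1* (0.05, adjusted p = 0.839) had the smallest p.

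Of 10 tested proteases and helpers that process procollagen and proteoglycans, 7 were higher and 3 lower, 2 and 0 at p under 0.05, with a median of 0.05. *Adamts5*, an aggrecanase that also cleaves SLRPs, had a difference of 0.48 (adjusted p = 0.197), and its other 2 probe sets were at 0.31 and 0.26. *Mmp14*, a membrane-bound collagenase, had a difference of 0.24 (adjusted p = 0.441), and its other probe sets were at -0.55 and 0.10. Without *Clock* mutant replicate 1 or 2 it was at 0.37 or 0.10. Of 15 tested ligands and receptors that SLRPs bind, 3 were higher and 12 lower, 1 and 4 at p under 0.05, with a median of -0.17. *Tgfb2*, a decorin ligand and hair follicle growth factor, read 1031 and 1160 in the mutants and 755, 623 and 647 in the WT, above all WT mice in both mutants. Its difference was 0.70 (SE 0.121, adjusted p = 0.113), and its other 3 probe sets were at 0.40 to 0.64. The 4 lower genes were *Bmp4* (-0.38, adjusted p = 0.3), *Tgfb1* (-0.58, adjusted p = 0.356), the endocytic receptor *Lrp1* (-0.20, adjusted p = 0.384) and *Cd14* (-0.35, adjusted p = 0.416), a co-receptor of Toll-like receptors. The other probe set of *Tgfb1* was at -0.09 and that of *Lrp1* at 0.08. *Tgfb1* was at -0.23 without *Clock* mutant replicate 1 and at -0.93 without replicate 2. Of 14 tested other dermal proteoglycans, 7 were higher and 7 lower, 1 each at p under 0.05, with a median of 0.01. The 2 were the glypican *Gpc4* (0.29, adjusted p = 0.316) and the testican *Spock2* (-0.44, adjusted p = 0.376). The other *Gpc4* probe set was at 0.25, and *Spock2* was at -0.16 without *Clock* mutant replicate 1 and -0.71 without replicate 2.

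Clock genes served as a check of the genotype contrast, and the part of the hour of collection in their values was not tested. Of 11 tested clock genes with E-boxes or D-boxes, 10 were lower in the mutants, with a median difference of -0.52. The exception was *Nr1d1*, the REV-ERB alpha gene, at 467 and 428 in the mutants and 308, 259 and 289 in the WT, a difference of 0.65 (adjusted p = 0.2). The study counts *Nr1d1* among CLOCK targets and reports it as lower in *Bmal1* knockout skin, a different mutant, so the direction here was opposite. *Per3*, a repressor of CLOCK, fell by 1.64 on the log2 scale (adjusted p = 0.0144) and *Per2*, another, fell by 1.17 (adjusted p = 0.0321). Neither passed without *Clock* mutant replicate 1 (adjusted p = 0.0615 and 0.148), WT replicate 2 (0.13 and 0.244) or WT replicate 3 (0.0619 and 0.151), though both remained lower. *Cry2* (-0.71), *Nr1d2* (-0.52) and the brighter probe set of *Dbp* (-1.32) had an unadjusted p under 0.001 without passing the adjusted threshold, and the dimmer *Dbp* probe set passed it (-1.54, adjusted p = 0.036). Other tested probe sets were at -1.16 to -0.56 for *Per3* and at -1.37 and -0.97 for *Per2*, and none of these passed. Over the 9 SLRP genes, the median log2 intensity relative to the WT mean was -0.01 and -0.04 in the mutants and 0.04, -0.06 and 0.02 in the WT, so that the mutants lay inside the WT range. Over all 20 probe sets, 6 of them of *Fmod*, it was -0.13 and -0.03 against 0.01, -0.06 and 0.07, with *Clock* mutant replicate 1 below the WT.

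Dermal fibroblast markers were present on every array and 8 of 8 could be tested, with 5 higher and 3 lower. Their median difference was 0.10 and their summed intensity was 45018 to 48060 in the mutants and 45031 to 46400 in the WT. At an unadjusted limma p under 0.05, 2 were higher (*Thy1* and *Pdgfrb*) and 0 lower, against 5.24% and 4.78% of all genes. Groups did not overlap for 3 higher markers and 1 lower marker, against 2031 higher and 1588 lower of all 12955 genes. *Thy1* and *Pdgfrb* had positive differences of 0.41 (adjusted p = 0.3) and 0.28 (adjusted p = 0.362), as had *Prrx1* (0.30), *Twist2* (0.17) and *Pdgfra* (0.03). *Vim* (-0.12), with both mutants below all WT mice, *Fbln1* (-0.10) and *Dpt* (-0.0027) had negative ones. Other probe sets ranged from -0.27 to 0.06 for *Prrx1*, from -0.15 to -0.03 for *Pdgfra* and from -0.02 to 0.23 for *Fbln1*. The other *Pdgfrb* probe set was at 0.08 and those of *Vim* were at -0.19 and -0.05. All 8 tested markers of hair shafts and root sheaths had positive differences, with a median of 1.88 and a summed intensity of 10426 and 4729 in the mutants and 4684, 3320 and 3661 in the WT. *Clock* mutant replicate 1, the male mouse, stood far above the other 4 mice, although the authors describe this skin as telogen. By histology the study reports a delay of the first anagen in *Clock* mutants, the opposite direction. It also notes slightly more advanced cycling in males when staging its *Bmal1* line. The part of sex in the hair markers, and the part of these markers in the *Podn* and *Fmod* values, was not tested. Median differences were -0.06 for 4 adipocyte, -0.07 for 7 skeletal muscle, 0.08 for 6 vascular, 0.01 for 6 macrophage and mast cell and 0.04 for 5 keratinocyte genes. By array the adipocyte median was 0.06 and -0.31 in the mutants and -0.12, 0.01 and 0.12 in the WT. At an unadjusted limma p under 0.05, *Cidec* (-0.36) of the adipocyte genes was lower. The muscle gene *Mb* (0.55, but 0.10 without *Clock* mutant replicate 1), the vascular *Tek* (0.41) and the keratinocyte *Krt1* (0.31) were higher. None of them passed the adjusted threshold. Cartilage, bone and tendon markers, checked because *Omd*, *Ogn* and *Aspn* are known from those tissues, had 3 tested genes with a median of -0.09 and 4 below the filter, among them the cartilage genes *Matn1* and *Col10a1*.

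**Figure D4:**
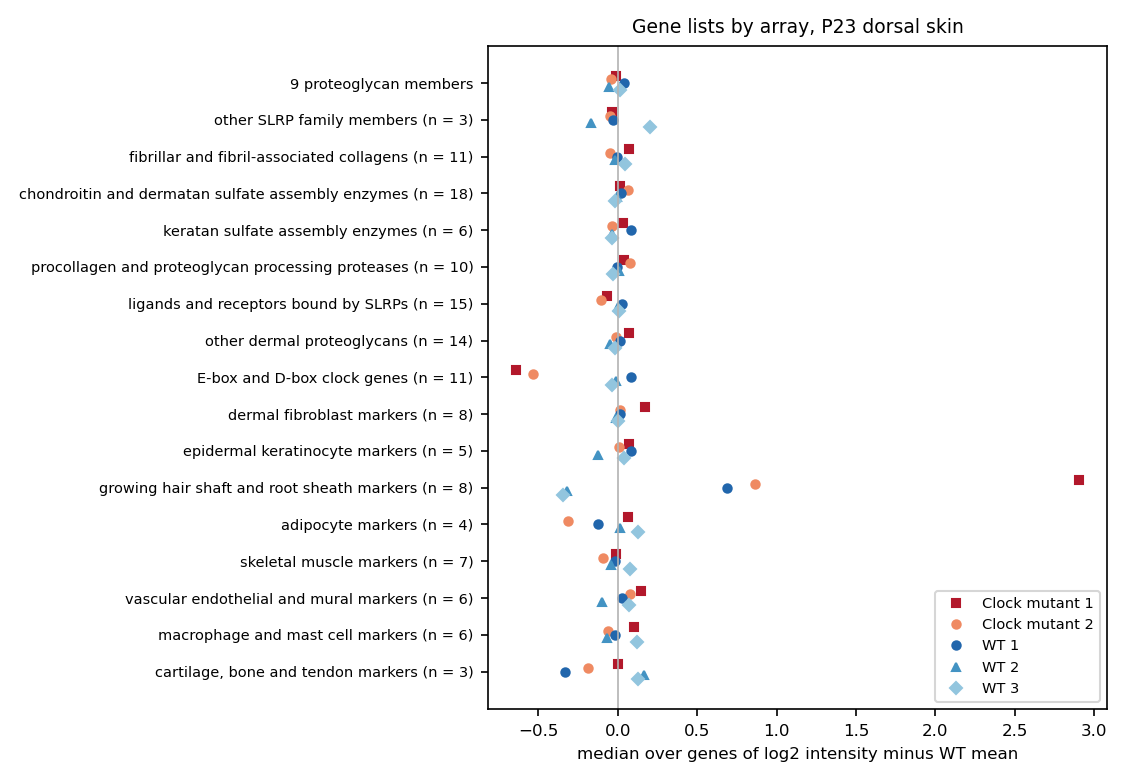
Median over the genes of each list of log2 intensity minus the WT mean, 1 point per array. The points of the 9 SLRP genes lie between -0.06 and 0.04, those of the clock genes split by genotype, and those of the hair shaft genes reach 2.91 in *Clock* mutant replicate 1.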

How the data were processed

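Total RNA from dorsal skin of 5 P23 mice, named biological replicates in the labels, was hybridised to 1 Affymetrix array each. The values are signal intensities that the authors deposited, made with MAS5 per the labels, in a version not given in the sources used here. MAS5 subtracts mismatch signal, so dim values are noisy, and scales each array. The 2% trimmed mean was 500.0 on every array, medians were 106 to 118, and arrays correlated at 0.950 to 0.960. Detection calls were not used here.

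Of 45101 probe sets, 64 controls were left out. The platform annotation gave 34945 of the others 1 symbol, 932 several and 9160 none. Gene IDs of 34741 were found in the RefSeq table of GRCm38.p6 (0 symbols updated). Values below 1 were raised to 1 before taking log2. After removal of 18015 probe sets whose mean was below the 40th percentile (56.7 as an intensity), the remaining 27022 entered 1 limma fit (version 3.58.1, R 4.3.3) with a trended prior and two-sided tests. P-values were adjusted over all 27022 by Benjamini-Hochberg at a threshold of 0.05. A gene is represented by its brightest tested probe set. The number of arrays limits the precision. This step was also tested on simulated data.

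Member genes and lists were chosen with earlier results of these data known, so lists are described and not tested. The text names every member and neighbour and, of each list of SLRPs, partners and clock genes, genes past the adjusted threshold or at an unadjusted p under 0.001, or else the 2 of smallest p. *Tgfb1*, *Lrp1*, *Cd14*, *Nr1d1* and the cell type markers were named after their values were seen. Promoter letters were searched on both strands in the 250 bases before each start. Tried as alternatives were quantile normalization, centring on medians, dropping the filter or raising it to the 60th percentile, adding 32 before log2, a prior without trend or a robust one, a Cyber-T style test (101 neighbours, weight 10), averaging a gene's probe sets, a replicate block, and omission of each array.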

Additional observations from a re-analysis of the deposited data

How the results depend on the processing

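Of 289 alternative values of the 20 probe sets, 268 kept the sign of the reported value and 21 did not, and 0 member probe sets passed the adjusted threshold under any setting run. With 2 mutants, of different sex, intervals of dim probe sets are wide, and a missed threshold does not show equal levels. Over all probe sets, 24 passed the adjusted threshold, against 10 without the filter, 0 without a trend in the prior (2631 at an unadjusted p under 0.05), 47 in the Cyber-T style test, and 0 to 239 on leaving out 1 array (0 without WT replicate 2 or 3, with 1570 and 2193 at an unadjusted p under 0.05, and 239 without *Clock* mutant replicate 2). Member probe sets at an unadjusted p under 0.05 (2 lower, 0 higher) were 1 lower and 1 higher with median centring, 1 lower without a trend, and 2 to 8 lower and 0 to 3 higher on leaving out 1 array. Causes of these shifts were not tested.

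Deviations of same-numbered mice of the 2 groups correlated at 0.01 and 0.10, against -0.10 and -0.01 when crossed. With 2 mutants, whose deviations mirror each other, these values cannot show whether replicate numbers pair the mice. A replicate block, in which WT replicate 3 has no partner and does not bear on the difference, gave 106 probe sets past the adjusted threshold and 1 member higher at an unadjusted p under 0.05, turned *Fmod* 1437685_x_at to 0.0033, and changed no adjusted member call.

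The sign also turned in these cases. Median centring gave 0.037 for *Dcn* 1449368_at, 0.038 for *Bgn* 1416405_at, 0.059 for *Aspn* 1416652_at and 0.049 for *Fmod* 1437685_x_at. Quantile normalization gave -0.015 for *Fmod* 1456084_x_at. Averaging probe sets gave 0.023 for *Bgn*, -0.0091 for *Prelp* and -0.079 for *Ogn*. On leaving out 1 array, *Fmod* ranged from -0.43 to 0.18 at 1415939_at, -0.33 to 0.34 at 1456084_x_at, -0.18 to 0.37 at 1437718_x_at, -0.43 to 0.35 at 1437685_x_at and -0.38 to 0.17 at 1437324_x_at. *Bgn* 1437889_x_at ranged from -0.0029 to 0.13, *Aspn* 1416652_at from -0.053 to 0.015 and *Lum* from -0.042 to 0.049.

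List medians moved by more than their spread between arrays as follows. Median centring gave 0.10 for collagens, 0.085 for chondroitin and 0.11 for keratan sulfate enzymes, 0.14 for proteases, -0.079 for ligands and receptors, 0.10 for other proteoglycans, -0.43 for clock genes, 0.022 for muscle and 0.17 for vascular markers. Dropping the filter gave -0.15 for other SLRPs and 0.089 for proteases, and the stricter filter 0.22 for cartilage, bone and tendon markers. Averaging probe sets gave -0.082 for keratan sulfate enzymes, -0.0069 for proteases, -0.71 for clock genes and 0.20 for vascular markers. On leaving out 1 array, medians ranged from -0.033 to 0.062 for chondroitin sulfate enzymes, -0.18 to -0.066 for ligands and receptors, -0.035 to 0.071 for other proteoglycans and -0.64 to -0.52 for clock genes.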
